A study of Homo sapiens with 9 samples.

Results

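DNA damage signalling and repair genes were followed in human HEK293 cells that expressed surfactant protein C (SP-C), a small hydrophobic protein which lung alveolar type II cells make as a proprotein. The list held 42 genes chosen for their known roles in the response to damaged DNA, with earlier results of these data known. Of these, 37 had a probe set whose annotation named only them, among 19752 genes named in the same way. All 37 passed the filter on low values, as did 14011 of all genes. ATRIP, RBBP8, BRCA2, FANCA and FANCD2 were not measured by this rule, and ATRIP's probe sets also name TREX1.

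Damaged or unreplicated DNA is sensed by the kinases ATM and ATR, which stop the cell cycle through CHEK2 and CHEK1. Breaks are trimmed by the MRE11 complex, EXO1 and helicases, marked in chromatin by MDC1 and its partners, and then joined by homologous recombination or by end joining. PARP enzymes attach poly(ADP-ribose) near breaks and PARG removes it, while mismatch repair corrects copying errors. HEK293 is a transformed line derived from embryonic kidney that carries adenovirus E1A and E1B, proteins known to bind RB and p53.

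There were 3 groups of 3 arrays, all from HEK293 cells after transient transfection. LQ cells received SP-C with the L188Q substitution, Ex4 cells received SP-C lacking exon 4, and WT cells received the wild-type protein. The WT-transfected cells served as the control for both mutants, so the comparisons of LQ and of Ex4 with WT share their controls, and no empty-vector or untransfected group was analysed here. RNA was hybridised to Affymetrix arrays and summarised per probe set as a linear MAS5 intensity, called the signal below. Changes are on log2(signal + 16), with standard errors (SE) and adjusted p-values from limma with Benjamini-Hochberg adjustment over 32768 probe sets, and a member was called when its adjusted p was under 0.05. Each gene was read on its probe set with the highest mean. Nothing in the labels states that the 3 replicates of a group came from separate cultures. The p-values therefore reflect the spread among arrays that may differ only technically, and precision is limited by there being 3 arrays a group.

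The arrays differed in ways that touch these genes. Array medians were 303.9 to 371.8 in LQ, 316.1 to 434.3 in Ex4 and 506.4 to 524.4 in WT, although trimmed means lay between 1493.6 and 1495.3 on all 9 arrays. Ex4 replicate 1 correlated with the WT arrays (mean 0.911) about as well as with its own group (0.906), and WT replicate 1 correlated better with LQ (0.907) and Ex4 (0.906) than with the other WT arrays (0.892). One probe set of SFTPC, the transfected gene, read 914.4, 39.1 and 28.7 on Ex4 replicates 1 to 3, so replicate 1 stood apart here too. The same probe set read 108292 to 126185 on the LQ arrays and 158962 to 239964 on the WT arrays, far above all 3 Ex4 arrays, which checks the Ex4 labels. RNA integrity, read as the 3' over the 5' control signal of GAPDH, gave 1.06 to 1.09 in LQ, 0.956 to 1.22 in Ex4 and 1.21 to 1.43 in WT. The same ratio for ACTB was 1.15 to 1.23 in LQ, 1.15 to 1.48 in Ex4 and 1.05 to 1.27 in WT. Of the HEK293-expressed genes PAX2, NEFL, NEFM, VIM, LHX1, EYA1 and GAL, all 7 that were measured lay above the array median on all 9 arrays. Their part in the results below was not tested. In bulk RNA a change in the cells present and a change in RNA per cell cannot be told apart.

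In LQ cells 5 members rose and 1 fell against WT. PARG, RIF1, RECQL, WRN and EXO1 rose 1.58- to 4.44-fold, and XRCC2 fell. The 5 that rose were 13.5% of the 37 members, against 3.69% of all 14011 genes called higher, and the 1 that fell was 2.7%, against 3.63% called lower. An unadjusted p under 0.05 was found for 14 members (37.8%) and 30.6% of all genes. Changes were positive for 32 members (86.5%), against 43.6% of genes. All LQ arrays lay above all WT arrays for 15 members (40.5%), against 15.7% of genes, and below them for 2, against 23.2%. The median log2 change was 0.30 over members and -0.09 over all genes. For 88 other repair and checkpoint genes it was 0.16. The members' counts shift with scaling: centring each array on its median moved the median of all genes to 0.49 and called 25 members higher and 1 lower, beside 7934 and 518 of all 32768 probe sets. Quantile normalization moved that median to -0.00 and called 3 and 1 members, beside 670 and 490 probe sets. As reported, 1011 probe sets were higher and 1220 lower.

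In Ex4 cells no member passed by limma, and neither did any of the 14011 genes (0.0% higher and 0.0% lower), while 12 members and 27.2% of genes had an unadjusted p under 0.05. The median log2 change was 0.33 over members and -0.08 over all genes, with 30 members positive (81.1%, against 43.6% of genes). Ex4 arrays all lay above the WT arrays for 11 members (29.7%), against 9.08% of genes, and below them for 1 (2.7%), against 14.9%. With median centring 21 members passed, all higher, beside 4824 probe sets higher and 282 lower, and with array weights 9 did, beside 5287 probe sets in all, against 4 as reported. With LQ and Ex4 pooled as both mutants against WT, 7 members were higher (18.9%, against 6.22% of genes) and 1 lower (2.7%, against 6.72%). They were the 6 called in LQ, with MRE11 and MDC1 added. The 6 mutant arrays all lay above WT for 10 members (27%, against 6.79% of genes) and below WT for 1, against 11.6%, and 31 members had positive changes (83.8%, against 43.4%). Median centring gave 28 higher and 0 lower for both mutants, beside 9039 and 697 of all probe sets, and the median of all genes was then 0.45.

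**Figure D1:**
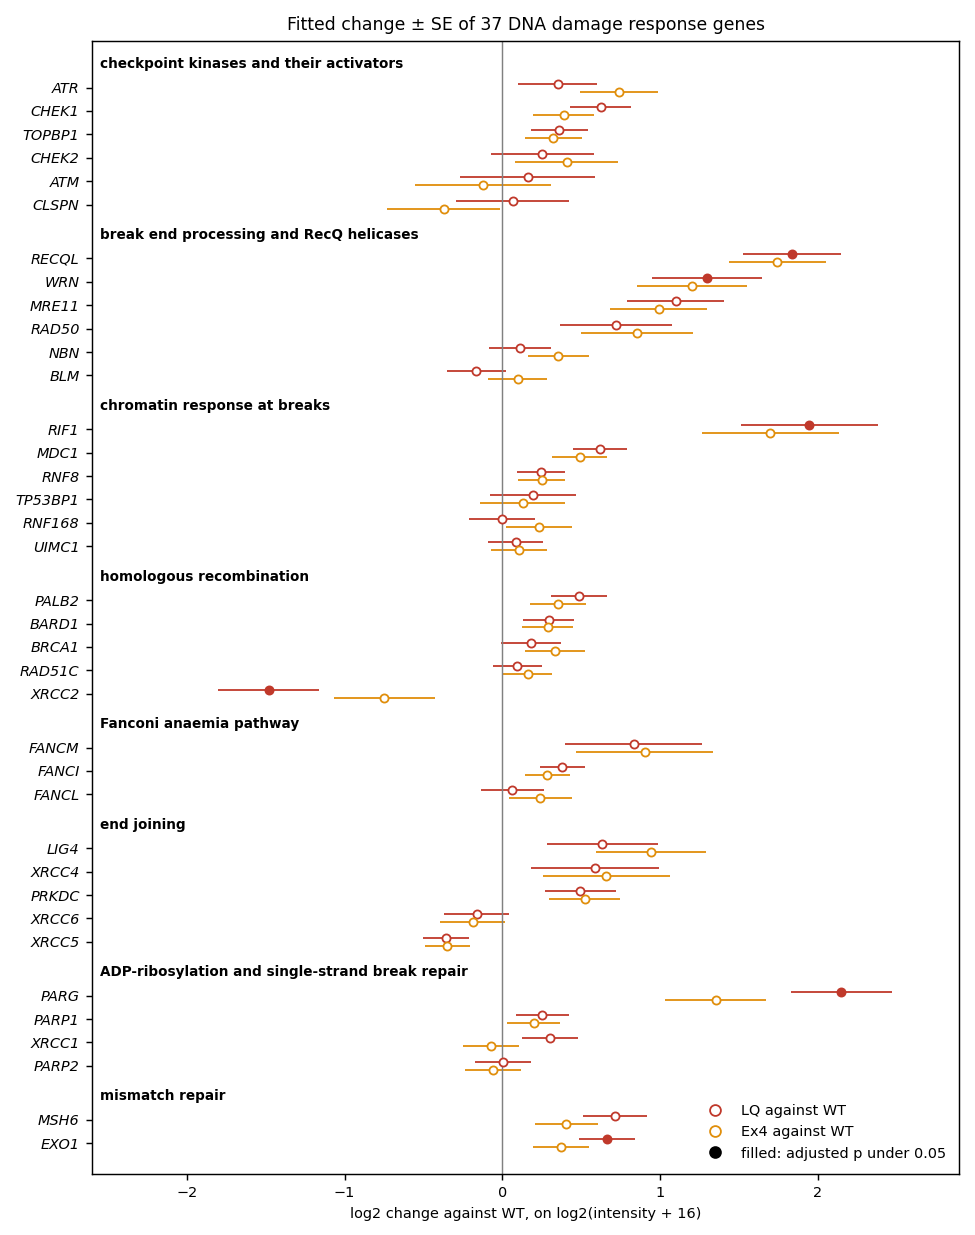
Fitted log2 change against WT with its SE for the 37 members, grouped by role down the page, for LQ and Ex4. Most points lie right of 0, with PARG, RIF1 and RECQL farthest right in LQ and XRCC2 farthest left.

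These genes are bright, and in this series brightness goes with the direction of change. When all genes were ordered by mean signal and divided into 3 equal parts, 25 members were in the brightest, 12 in the middle and 0 in the dimmest. In the brightest part the median LQ change of all 4671 genes was 0.151, with 63.9% positive and 8.26% called higher, against a member median of 0.305 with 22 of 25 positive and 4 called higher. The middle part had -0.0532 over all genes with 45.7% positive and 2.42% called higher, against 0.371 for its 12 members with 10 positive, 1 higher and 1 lower. For Ex4 the brightest part had 0.124 over all genes and 0.323 over members, 21 of 25 being positive. The dimmest part of all genes had a median LQ change of -0.596.

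The WT arrays spread widely for these genes. WT replicate 1 was the highest of the 3 WT arrays for 25 members (67.6%), against 33.4% of all genes. WT replicate 2 was the lowest of all 9 arrays for 24 members (64.9%), against 15.7% of genes. Averaged over members, log2 signal differed from the gene's own mean by 0.165, 0.119 and 0.170 on LQ replicates 1 to 3, by 0.052, 0.157 and 0.178 on the Ex4 replicates, and by 0.073, -0.590 and -0.324 on the WT replicates. WT replicate 1 thus lay near the mutants, and the other two WT arrays lay low. Calls over the whole table moved with single arrays, and the members' with them. Leaving out WT replicate 1 called 13 members higher and 2 lower in LQ, beside 2697 and 2288 of all 32768 probe sets, and 10 higher and 1 lower in Ex4, beside 2253 and 1417. Leaving out Ex4 replicate 1 called 8 higher and 1 lower in LQ, beside 1710 and 2672 probe sets, and 5 higher and 1 lower in Ex4, beside 1410 and 2999. No member was called in LQ without WT replicate 2, without WT replicate 3, or without any one of the LQ arrays, where 10 to 12 members still had an unadjusted p under 0.05. In those 5 fits 8 to 59 of all probe sets were called in LQ, against 2231 as reported.

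**Figure D2:**
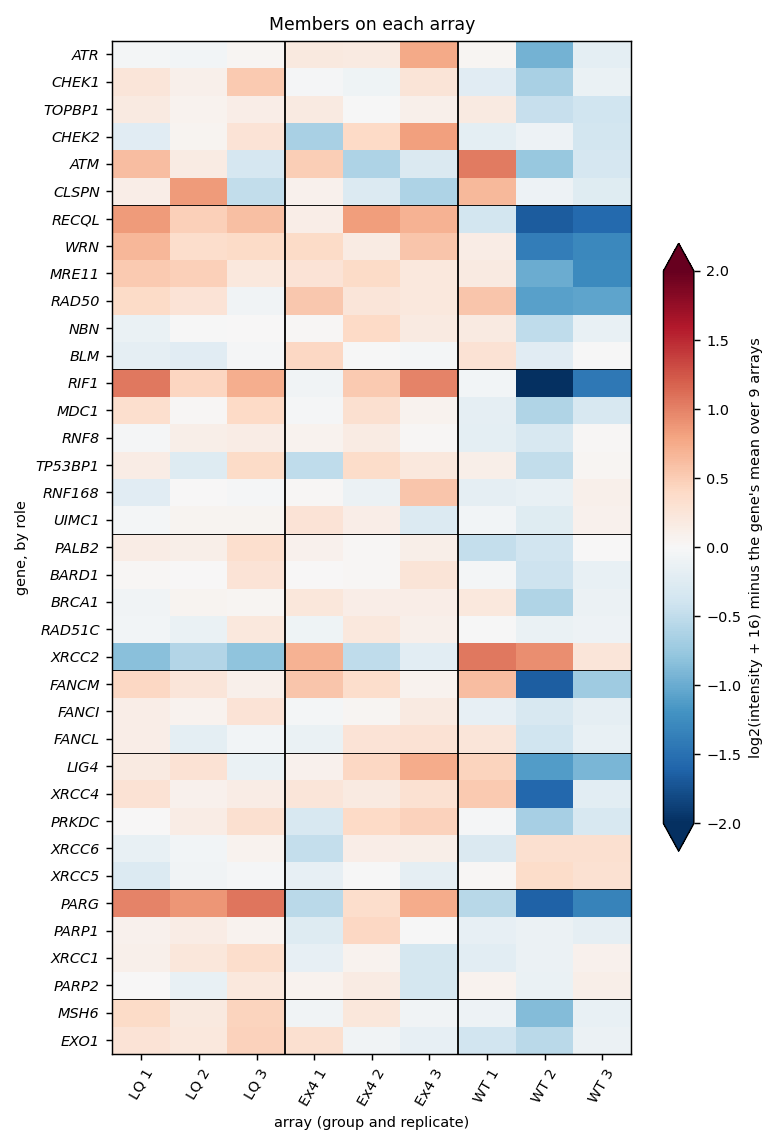
Colour map of log2(signal + 16) minus each gene's mean over the 9 arrays, with LQ, Ex4 and WT arrays from left to right and the 37 members by role down the page. The WT replicate 2 and 3 columns are mostly below the gene means (average -0.590 and -0.324), while WT replicate 1 (0.073) resembles the mutant arrays.

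The stretches just upstream of the transcription start are shown for 5 of the 6 members called in LQ, because these genes moved together or, for XRCC2, the other way. Sequences are RefSeq's on GRCh38.p14, 150 bases each, 5' to 3' on the gene's strand and ending at the base before the start. Capitals mark CCAAT boxes (CCAAT, or ATTGG where the match is on the other strand), GC boxes (GGGCGG, or CCGCCC) and cAMP response elements (TGACGTCA), and neighbouring or overlapping matches run together. They lie at chr12:21501636-21501785 on the minus strand (RECQL), chr2:151409752-151409901 on the plus strand (RIF1), chr7:152676142-152676291 on the minus strand (XRCC2), chr10:49942028-49942177 on the minus strand (PARG) and chr1:241848054-241848203 on the plus strand (EXO1, the start with the lower coordinate).
RECQL: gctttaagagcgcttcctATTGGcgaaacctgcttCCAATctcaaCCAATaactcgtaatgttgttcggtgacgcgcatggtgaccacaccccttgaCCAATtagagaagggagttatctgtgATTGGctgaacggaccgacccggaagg
RIF1: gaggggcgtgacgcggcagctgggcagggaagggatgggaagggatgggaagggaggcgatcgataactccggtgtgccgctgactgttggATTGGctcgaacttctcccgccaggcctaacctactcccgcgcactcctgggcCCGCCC
XRCC2: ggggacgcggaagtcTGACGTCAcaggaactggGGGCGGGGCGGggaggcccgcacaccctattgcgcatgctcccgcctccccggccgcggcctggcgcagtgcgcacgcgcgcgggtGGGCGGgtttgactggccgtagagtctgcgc
PARG: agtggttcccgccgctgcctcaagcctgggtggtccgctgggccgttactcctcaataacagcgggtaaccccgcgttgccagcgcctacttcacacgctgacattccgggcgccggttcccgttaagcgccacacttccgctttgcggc
EXO1: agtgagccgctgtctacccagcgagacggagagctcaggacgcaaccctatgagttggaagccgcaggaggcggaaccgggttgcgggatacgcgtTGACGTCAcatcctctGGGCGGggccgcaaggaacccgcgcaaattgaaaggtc

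RECQL carries 5 CCAAT matches in this window and RIF1 has 1. XRCC2 has 3 GC box matches, 2 of them overlapping, and a cAMP response element, as does EXO1. PARG has none of these motifs in its window. Searching both strands of the 250 bases upstream, the CCAAT box was found for 19 of 32 matched members (59.4%), against 34.5% of 11282 tested genes with a window of the same length. GC boxes were found for 23 (71.9%), against 63.2%, and the cAMP response element for EXO1, PARP2 and XRCC2 (9.38%, against 2.74%). An E2F-type site (TTTCGCGC, TTTGGCGC or TTTCCCGC) was in 0 of 32, against 3.62%, and CACGTG in 0, against 8.41%. Motifs of the endoplasmic reticulum stress response were also in 0, with the ERSE in 0.115% of all genes, the UPRE core TGACGTGG in 0.736% and the amino acid response element TGATGCAAT, TGATGAAAC or TGATGCAAA in 0.372%. The ERSE holds the CCAAT letters. Median LQ change was 0.49 for members with a CCAAT box and 0.25 for those without. With a GC box it was 0.26, and without one 0.64. The 3 members with a cAMP response element had 0.66 (EXO1), 0.0044 (PARP2) and -1.48 (XRCC2), beside a median of 0.30 without. The window's GC content was 46.4% to 81.2% over members with a median of 63.6%, against a median of 64.4% over tested genes. A match is a description and not a bound site. PRKDC, WRN, FANCI, NBN and XRCC5 had no entry.

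Among checkpoint kinases and their activators (6 of 7 measured), no member was called in any comparison on its brightest probe set. Over both mutants other probe sets of ATR (0.98, adjusted p = 0.035) and ATM (1.16, adjusted p = 0.042) were called higher. The same held for 2 of CHEK1 (1.09 and 0.70, adjusted p = 0.020 and 0.038), and no probe set of this group was called lower. All 6 had positive changes in LQ (0.07 to 0.62) and 4 in Ex4 (-0.37 to 0.74). ATR, the kinase activated by single-stranded DNA at stalled forks, read 4444, 4407 and 4701 in LQ, 5216, 5162 and 7709 in Ex4, and 4686, 2370.1 and 3976 in WT. Its Ex4 arrays all lay above WT, and its LQ arrays overlapped WT. ATR's log2 change was 0.35 ± 0.25 in LQ (SE, adjusted p = 0.36) and 0.74 ± 0.25 in Ex4 (adjusted p = 0.11). CLSPN, the adaptor through which ATR reaches CHEK1, read 1362, 2262 and 880.2 in LQ, 1315, 1025 and 801.8 in Ex4, and 1949.9, 1161.5 and 1043.5 in WT. The 3 groups overlapped, with log2 changes of 0.07 ± 0.36 in LQ and -0.37 ± 0.36 in Ex4 (adjusted p = 0.92 and 0.54), and the LQ sign turned in 3 of the 9 fits without 1 array. CHEK1, the effector kinase below ATR, had 0.62 ± 0.19 in LQ on its brightest probe set (adjusted p = 0.066), with LQ and Ex4 arrays all above WT. ATM, CHEK2 and TOPBP1 had LQ changes of 0.16, 0.26 and 0.36, with groups that overlapped.

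The largest group shift was in break end processing and the RecQ helicases (6 of 7 measured), where median log2 change was 0.91 in LQ and 0.92 in Ex4. The summed signal of these 6 was 29014 to 32626 in LQ and 31481 to 33303.5 in Ex4. It was 29915, 14792.5 and 16645 on WT replicates 1 to 3, so WT replicate 1 lay inside the LQ range. RECQL, a RecQ helicase that restarts reversed forks, read 8947, 6902 and 7504 in LQ, 5430.5, 8822 and 7981 in Ex4, and 3831, 1551 and 1676 in WT. Every mutant array lay above every WT array. RECQL rose 3.58-fold in LQ (log2 change 1.84 ± 0.31, adjusted p = 0.020) and had 1.75 ± 0.31 in Ex4 (3.35-fold, adjusted p = 0.076). Its other 3 probe sets gave smaller LQ changes of 0.76, 0.56 and 0.96, and their mean with the first was 1.03. WRN, the helicase and exonuclease mutated in Werner syndrome, read 2756.5, 2211.5 and 2251 in LQ, 2270.4, 1933 and 2549.7 in Ex4, and 1928, 654.4 and 701.7 in WT. WT replicate 1 lay just under the lowest mutant array, and the other WT arrays were far lower. WRN rose 2.46-fold in LQ (1.30 ± 0.35, adjusted p = 0.046), a call lost after quantile normalization, with 1.20 ± 0.35 in Ex4 (adjusted p = 0.091). MRE11, the nuclease that starts end resection, read 3866, 3754 and 3091 in LQ, 3259, 3518 and 3113 in Ex4, and 3033.5, 1336 and 1101 in WT. It had 1.10 ± 0.31 in LQ (adjusted p = 0.052) and 0.99 ± 0.31 in Ex4 (adjusted p = 0.10), and both mutants together were 2.07-fold higher (1.05 ± 0.27, adjusted p = 0.034). The second tested MRE11 probe set gave 0.30 in LQ. Averaged over all MRE11 probe sets, including a dim one that was not tested, the change was 0.03 in LQ and 0.13 over both mutants. The call over both mutants passed in 2 of 9 fits that each left out 1 array. Its partner RAD50 had 0.72 in LQ and 0.86 in Ex4 (adjusted p = 0.20 and 0.16), and its WT signals were 8109.7, 2599.8 and 2660.6. NBN, the remaining subunit of that complex, had 0.11 in LQ and 0.36 in Ex4 (adjusted p = 0.73 and 0.27), and on another of its probe sets all LQ arrays lay below WT, at -0.60 (adjusted p = 0.10). BLM, another RecQ helicase, read 5403, 5222 and 5981 in LQ, 8178, 6046 and 5917 in Ex4, and 7483, 5219.9 and 6094 in WT, and the groups overlapped. Its log2 change was -0.17 ± 0.19 in LQ (adjusted p = 0.58) and 0.10 ± 0.19 in Ex4 (adjusted p = 0.77).

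**Figure D3:**
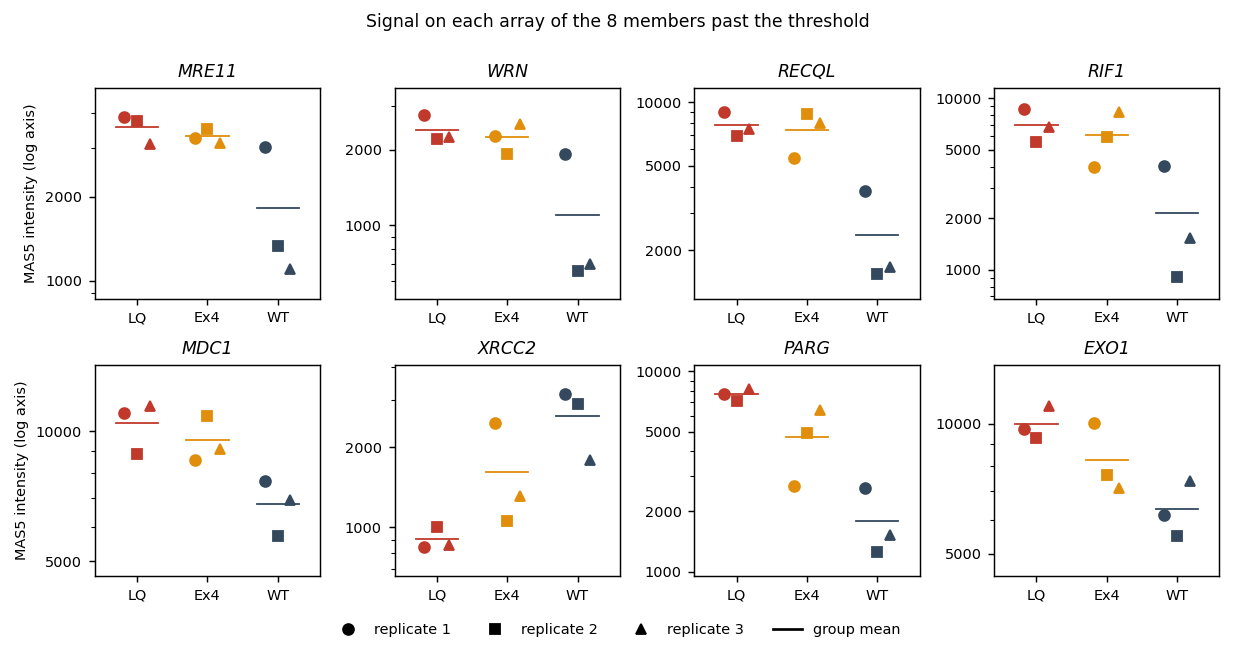
Signal on each array (log axis) for the 8 members called in any comparison, with LQ, Ex4 and WT from left to right in each panel a point per array shaped by replicate and a line at the group mean. WT replicate 1 stands near the mutant arrays for WRN (1928) and MRE11 (3033.5), and XRCC2 is the member whose LQ arrays (840.8 to 1006) lie below WT.

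Of 6 genes of the chromatin response at breaks, 1 rose in LQ and 2 over both mutants. RIF1, which limits end resection together with TP53BP1 and also times replication, read 8599, 5586 and 6843 in LQ, 3969.7, 5955 and 8281.5 in Ex4, and 4004, 911.9 and 1527.5 in WT. The LQ arrays were all above WT, and Ex4 replicate 1 lay just below WT replicate 1. RIF1 rose 3.86-fold in LQ (1.95 ± 0.44, adjusted p = 0.031), with 1.70 ± 0.44 in Ex4 (adjusted p = 0.081). The identifier of this probe set marks it as one whose probes may match other transcripts. RIF1 has 8 tested probe sets, of which the second brightest also rose in LQ (1.43, adjusted p = 0.045), while the other 6 ran between -0.32 and 0.97 and did not pass. Averaged over all 9 RIF1 probe sets, including a dim one that was not tested, the LQ change was 0.43 (adjusted p = 0.45). MDC1, the scaffold that reads phosphorylated histone H2AX, read 10991, 8839 and 11441 in LQ, 8589.9, 10854 and 9101 in Ex4, and 7677, 5731 and 6941 in WT. Mutant and WT arrays did not overlap. MDC1 had 0.62 ± 0.17 in LQ (adjusted p = 0.052) and 0.49 ± 0.17 in Ex4 (adjusted p = 0.12), and was 1.47-fold higher in both mutants together (0.56 ± 0.15, adjusted p = 0.039), which was lost after quantile normalization. UIMC1, which brings the BRCA1-A complex to ubiquitin, read 5303, 5659 and 5653 in LQ, 6569.7, 6002 and 4528 in Ex4, and 5272, 4631 and 5824 in WT, with changes of 0.08 ± 0.18 and 0.11 ± 0.18 (adjusted p = 0.78 and 0.73). TP53BP1, RNF8 and RNF168 had LQ changes of 0.20, 0.25 and -0.00, and none passed. TP53BP1 has 3 tested probe sets, and the others had -0.64 and -0.61 in LQ (adjusted p = 0.086 and 0.39). On the former all LQ arrays lay below WT.

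In homologous recombination (5 of 6 measured) the called member fell. XRCC2, which acts in strand exchange, read 840.8, 1006 and 862.1 in LQ, 2468.5, 1056 and 1311 in Ex4, and 3174, 2900.4 and 1786 in WT. LQ arrays were all below WT, while Ex4 replicate 1 lay inside the WT range and the other two Ex4 arrays below it. XRCC2 was 2.79-fold lower in LQ (-1.48 ± 0.32, adjusted p = 0.030), with -0.75 ± 0.32 in Ex4 (adjusted p = 0.18) and -1.10 in Ex4 without Ex4 replicate 1, which then passed. Its 1 probe set is also of the kind that may match other transcripts. PALB2, which links BRCA1 to BRCA2, read 3999.8, 3905 and 4553 in LQ, 3825, 3645 and 3875 in Ex4, and 2575, 2762 and 3621 in WT. All mutant arrays were above WT, with 0.49 ± 0.18 in LQ and 0.35 ± 0.18 in Ex4 (adjusted p = 0.10 and 0.24). BRCA1, its partner BARD1 and RAD51C had LQ changes of 0.18, 0.29 and 0.10, and did not pass.

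Fanconi anaemia genes (3 of 5 measured) were not called on their brightest probe sets. FANCM, the translocase that recruits the core complex, read 1977, 1752 and 1594 in LQ, 2178, 1891 and 1544 in Ex4, and 2285.0, 458.6 and 898.2 in WT. WT replicate 1 was above every mutant array and the other two WT arrays below them all, and the change was 0.84 ± 0.43 in LQ and 0.90 ± 0.43 in Ex4 (adjusted p = 0.22 each). Its other probe sets ran from -0.16 to 2.26 in LQ. FANCL, the ubiquitin ligase of the core complex, read 5446, 4377.5 and 4821 in LQ, 4545, 6018.5 and 6079.6 in Ex4, and 5929, 3766 and 4489.7 in WT, with 0.07 ± 0.20 and 0.24 ± 0.20 (adjusted p = 0.85 and 0.48). FANCI had 0.38 in LQ, with LQ and Ex4 arrays all above WT (adjusted p = 0.11 in LQ). Another FANCI probe set was called higher over both mutants (0.46, adjusted p = 0.048), and the last had -0.25 and was not called.

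End joining (5 of 5 measured) split by gene, and none passed on its brightest probe set. XRCC5, a subunit of the Ku ring that holds broken ends, read 24262, 27716 and 28647 in LQ, 26083, 29143 and 25855.5 in Ex4, and 29657, 37745 and 36168 in WT. All mutant arrays lay below WT, with -0.36 ± 0.14 in LQ and -0.35 ± 0.14 in Ex4 (adjusted p = 0.13 and 0.17), and median centring turned both signs. LIG4, the ligase that seals the joined ends, read 2821, 3035 and 2256 in LQ, 2641, 3319 and 4191 in Ex4, and 3385, 1141 and 1316 in WT. Both mutants overlapped WT replicate 1 alone, with 0.64 ± 0.35 in LQ and 0.94 ± 0.35 in Ex4 (adjusted p = 0.25 and 0.14). XRCC4, PRKDC and XRCC6 had LQ changes of 0.59, 0.50 and -0.16. Their tested probe sets ran in LQ from -0.60 to 0.59, -0.87 to 0.50 and -0.80 to -0.16. Over both mutants 1 other XRCC6 probe set was called lower (-1.04) and 1 other LIG4 probe set higher (1.22).

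Among ADP-ribosylation and single-strand break repair genes (4 of 4 measured), PARG rose most of all members in LQ. PARG, the enzyme that removes poly(ADP-ribose) chains, read 7741, 7107.5 and 8156 in LQ, 2669.5, 4951 and 6451 in Ex4, and 2615, 1251 and 1530.0 in WT. LQ arrays were tightly grouped and above WT, and Ex4 replicate 1 sat just above WT replicate 1. PARG rose 4.44-fold in LQ (2.15 ± 0.32, adjusted p = 0.015) and had 1.35 ± 0.32 in Ex4 (2.56-fold, adjusted p = 0.077). Its only probe set passed in 11 of 11 other settings and in 4 of 9 fits that each left out 1 array. PARP2, one of the enzymes that PARG opposes, read 9338, 8365 and 10807 in LQ, 9753, 10380.1 and 7314 in Ex4, and 9769, 8443 and 10142 in WT. Its groups overlapped, with 0.00 ± 0.18 in LQ and -0.06 ± 0.18 in Ex4 (adjusted p = 0.99 and 0.86). PARP1 and XRCC1 had 0.25 and 0.30 in LQ, with all LQ arrays above WT, and did not pass.

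In mismatch repair both members had positive changes. EXO1, an exonuclease of mismatch repair and of end resection, read 9730.1, 9270.0 and 11025 in LQ, 10027, 7625 and 7120.4 in Ex4, and 6148, 5508 and 7366 in WT. LQ arrays were all above WT and Ex4 replicate 3 lay inside the WT range. EXO1 rose 1.58-fold in LQ (0.66 ± 0.18, adjusted p = 0.047), had 0.37 ± 0.18 in Ex4 (adjusted p = 0.21), and was lost in LQ after quantile normalization at 0.50. MSH6, which recognises mismatched bases, read 24198.5, 21293 and 25328 in LQ, 17779, 21824.5 and 17649.8 in Ex4, and 17308, 10176 and 16711 in WT. Mutant arrays were all above WT, narrowly for 2 of the Ex4 arrays, with 0.72 ± 0.20 in LQ (adjusted p = 0.052) and 0.41 ± 0.20 in Ex4 (adjusted p = 0.23). Its other tested probe set rose in LQ (0.88, adjusted p = 0.024). Averaged over all 4 MSH6 probe sets, including those too dim to be tested, the LQ change was 0.08 and was not called.

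A gene's probe sets did not always move together. There were 88 tested probe sets for the 37 members, 9 called higher in LQ and 2 lower, against 3.09% and 3.72% of all probe sets. Over both mutants 16 probe sets in 13 members were called higher and 3 in 3 members lower, against 4.89% and 6.77% of all probe sets. In Ex4 0 were called either way. Among 24 members with several tested probe sets, all were of 1 sign in 13 for LQ and in 11 for Ex4. In LQ the other probe set of ATR had 0.83, that of LIG4 1.14 and that of MDC1 0.17, and none of these passed in LQ. Over both mutants those of ATR and LIG4 were called higher, and that of MDC1 was not. All probe sets of CLSPN ran from -0.50 to 0.07, those of PARP2 from 0.00 to 0.23 and those of XRCC5 from -0.45 to -0.01. CHEK1 and RNF168 stand out and were chosen after their values were seen. Another 2 CHEK1 probe sets rose in LQ (1.23, adjusted p = 0.024, and 0.82, adjusted p = 0.046) and the last had -0.19. A dim RNF168 probe set, for the ubiquitin ligase that spreads the chromatin mark, fell in LQ (-1.98, adjusted p = 0.046), although its brightest probe set had -0.00.

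**Figure D4:**
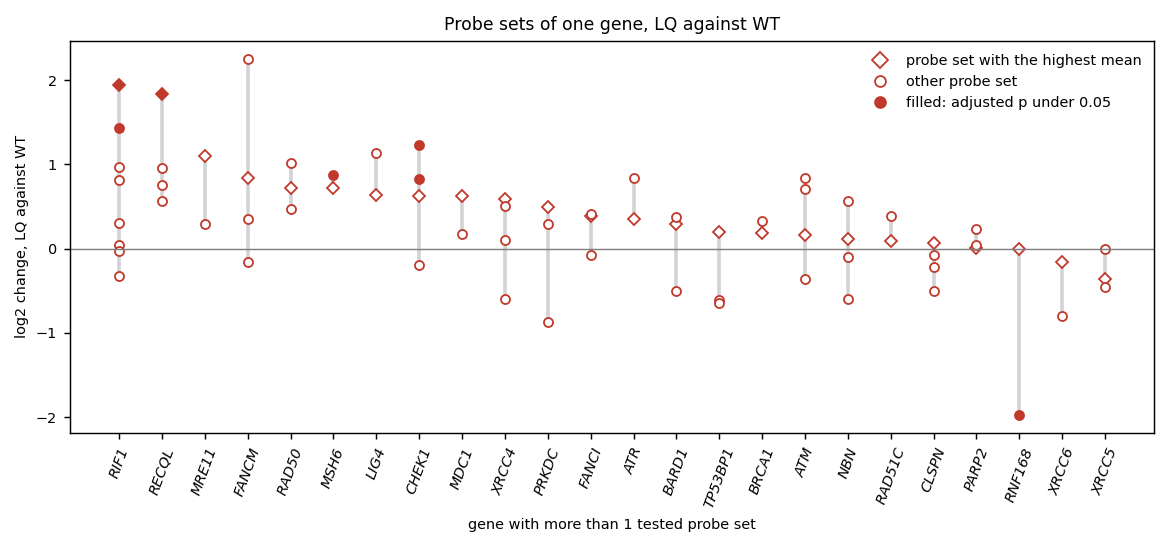
Log2 change in LQ against WT for each tested probe set of the members that have more than 1, by gene. Values for RIF1 run from -0.32 to 1.95 and for CHEK1 from -0.19 to 1.23, the probe set used for each gene is a diamond, and filled points have an adjusted p under 0.05.

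LQ and Ex4 were also compared with each other. No member passed, and no gene did on its brightest probe set (0.0% each way), while 2 of all 32768 probe sets were called higher and 0 lower. XRCC2 and PARG had an unadjusted p under 0.05 among members (5.41%), and 4.19% of all genes did. PARG was 0.80 higher in LQ than in Ex4 on the log2 scale (95% interval 0.10 to 1.49), and XRCC2 was lower at -0.73 (-1.43 to -0.037), both with an adjusted p of 1.0. LQ arrays were all above Ex4 arrays for 3 members, against 5.91% of genes, and all below for 4, against 6.47%. The unadjusted 95% interval of the difference reached 0.312 to 0.947 to either side over members, with a median of 0.441. Changes of LQ over Ex4 were positive for 20 members (54.1%), against 48.5% of genes.

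Genes of related pathways were counted from lists also chosen with earlier results known. Of all 14011 genes, 3.69% were called higher in LQ and 3.63% lower, and 0.0% either way in Ex4. In LQ, 7 of the 88 other repair and checkpoint genes were called higher and 1 lower, and in Ex4 none were. Among 20 base and mismatch repair genes 3 rose, namely UNG, the uracil glycosylase, at 2.49-fold (adjusted p = 0.013), TDG, the thymine glycosylase (0.81, adjusted p = 0.033), and NEIL2, which was dim (1.62, adjusted p = 0.041). CDC25A, the phosphatase that CHEK1 restrains, rose 2.87-fold (adjusted p = 0.020) and was 1 of 19 checkpoint genes. RAD51AP1, a recombination factor, and SHLD2, of the shieldin complex, rose and FANCE fell among 22 recombination and Fanconi genes (1.05, 0.72 and -0.86, adjusted p = 0.038, 0.0497 and 0.031). ERCC4, the excision nuclease subunit, rose among 18 excision and translesion genes (0.72, adjusted p = 0.037), and none of 9 end joining genes passed.

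Of 19 p53 target genes, 3 rose in LQ and 0 fell, beside 3.69% of all genes called higher and 3.63% lower. AEN, a nuclease induced by p53, had 1.07 (adjusted p = 0.020), GADD45A, a stress-induced growth arrest gene, had 1.10 (adjusted p = 0.025) and PPM1D, the phosphatase that switches the response off, had 0.71 (adjusted p = 0.033). CDKN1A and MDM2, classic p53 targets, had 0.36 and 0.21 and were not called (adjusted p = 0.23 and 0.48). Changes were positive for 11 of the 19, against 43.6% of all genes. All LQ arrays lay above WT for 7 of them, against 15.7% of genes, and below WT for 2, against 23.2%. These 2 were BAX and ZMAT3 (-0.82 and -0.93), and neither was called. Of 23 proliferation genes, 5 rose in LQ and 0 fell, beside the same 3.69% and 3.63% of all genes. Those that rose included MCM3, AURKA and CDK1 (0.82, 0.80 and 1.43, adjusted p = 0.019, 0.023 and 0.038). The summed signal of the 23 was 375650 to 389148 in LQ, 326290 to 380919 in Ex4 and 305882 to 331090 in WT, where WT replicate 1 was the lowest of all 9 arrays. Of 7 HEK293-expressed genes PAX2 fell in LQ (-2.04, adjusted p = 0.025) and all 7 had negative changes, with summed signals of 97750 to 109215 in LQ, 97681 to 106586 in Ex4 and 111697 to 135614 in WT. COL1A1 was 1 of 3 tested fibroblast markers and fell (-0.96, adjusted p = 0.028), and 0 of 3 tested blood and 0 of 6 tested alveolar type II markers passed. The part of these lists in the members' changes was not tested.

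**Figure D5:**
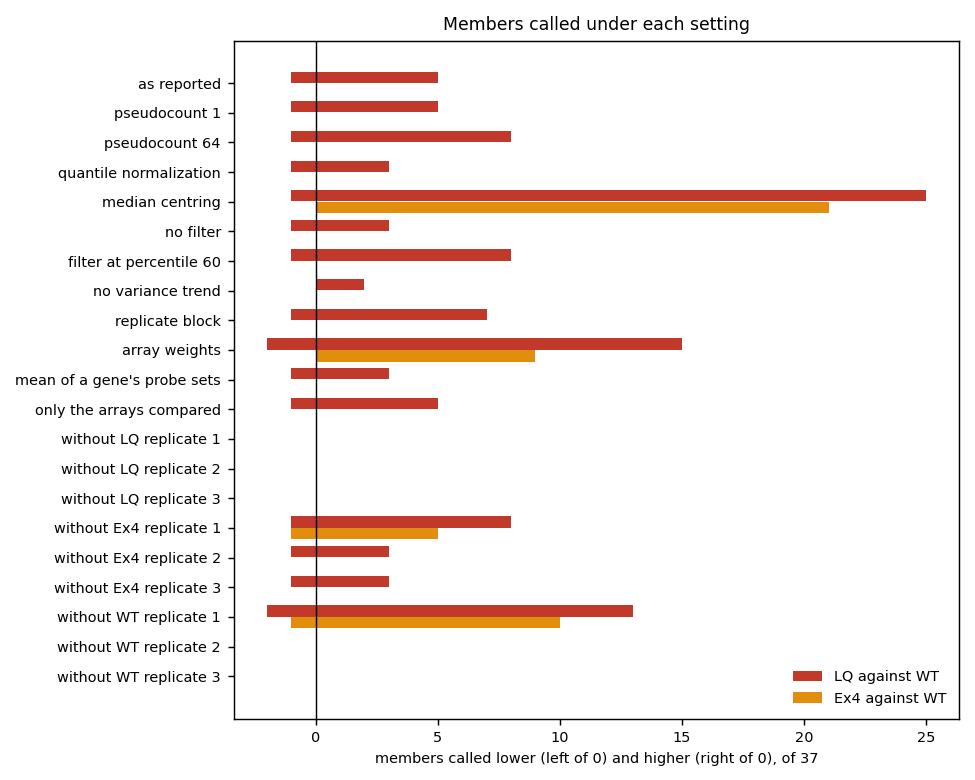
Number of the 37 members called higher (right of 0) and lower (left of 0) under each setting, by comparison with WT. LQ has 5 higher and 1 lower as reported, 25 and 1 with median centring, and 0 when WT replicate 2, WT replicate 3 or any LQ array was left out.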

How the data were processed

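Total RNA of 9 HEK293 samples was measured on Affymetrix arrays of 54675 probe sets, 62 of them controls. The authors deposited 1 linear intensity per probe set and array, which the submitters' processing notes credit to MAS5 with a version not given in the sources used here. This method scales each array to a common mean, and this scaling was kept. Of 54613 other probe sets, 41091 had 1 gene symbol in the platform annotation, 1801 several and 11721 none, and no gene was named from the other kinds. Current symbols came from RefSeq by gene identifier, and 6 stayed as annotated.

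The deposited intensities were converted here to log2(value + 16). Probe sets with a mean under percentile 40 were left out, which left 32768. One limma model (3.58.1, R 4.3.3) took the 9 arrays with a variance trend and with no replicate term (examined in the closing section). Tests were two-sided at an adjusted p of 0.05. Alternatives were pseudocounts of 1 and 64, quantile normalization, median centring, array weights, no variance trend, no filter or one at percentile 60, a fit on the compared groups alone, the replicate block, averaging the probe sets of a gene, and each array left out in turn. Full statistics were given for members past the threshold in any comparison and for the members with the largest and smallest change in each role group, and other members by range or count. The members and lists were chosen with earlier results of these data known. The model was tested on simulated data before use. There 19% of true 2-fold and 52% of true 4-fold changes were called in LQ against WT, and the same in Ex4 against WT. Over both mutants the shares were 28% and 68%, so many true changes of these sizes would be missed.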

Additional observations from a re-analysis of the deposited data

How the results depend on the processing

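There were 11 other settings, including the fit on the LQ and WT arrays alone. Under these PARG and RECQL were called in LQ in all 11, XRCC2 in 10 (not without the variance trend), RIF1 in 9, EXO1 in 7 and WRN in 6. With each array left out in turn, PARG, RECQL, RIF1 and XRCC2 passed in 4 of 9 fits and WRN and EXO1 in 2, and the LQ calls were lost without any LQ array, WT replicate 2 or WT replicate 3. In those 5 fits 8 to 59 of 32768 probe sets were called in LQ, against 2231 as reported. The directions of these members' LQ changes did not turn. MRE11 and MDC1, called over both mutants only, each passed that comparison in 2 of 9 fits without 1 array. Members called ran from 0 to 15 for LQ, 0 to 11 for Ex4, 0 to 15 for both mutants and 0 to 0 between the mutants. Median changes ran from 0.245 to 0.388, 0.199 to 0.418, 0.225 to 0.403 and -0.030 to 0.069 in the same order. Under the other settings 26, 21 and 28 members were called in LQ, Ex4 and both mutants with median centring (medians 0.887, 0.821 and 0.868), 17, 9 and 15 with array weights, 2 in LQ and 2 in both without a variance trend, and 5 in both when a gene's probe sets were averaged (median 0.154, and 0.177 for Ex4). All probe sets called moved too, from 2231, 4 and 3818 in LQ, Ex4 and both mutants as reported to 8452, 5106 and 9736 with median centring, 8580, 5287 and 9036 with array weights, and 442 in LQ and 1520 in both without a variance trend. Quantile normalization gave a median of 0.169 for both mutants, and averaging a gene's probe sets gave 0.201 for LQ. Positive LQ changes, found for 32 members as reported, were found for 27 with quantile normalization and 27 with averaged probe sets. They were found for 25 without WT replicate 2 and for 36 with median centring. The median LQ change of all genes in these 4 fits was -0.0044, -0.18, -0.068 and 0.49. The causes were not tested.

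Signs that turned were all of changes that were not called. After quantile normalization UIMC1 had -0.055, FANCL -0.065 and PARP2 -0.182 in LQ, and BLM -0.032 and UIMC1 -0.0091 in Ex4. With median centring BLM had 0.42 and XRCC5 0.23 in LQ, and CLSPN 0.12, XRCC5 0.14 and PARP2 0.43 in Ex4. With array weights PARP2 had -0.063 in LQ and UIMC1 -0.0063 in Ex4. Averaging the probe sets of a gene, CLSPN had -0.18 in LQ, and PARP2 0.016 and MSH6 -0.36 in Ex4. Such averages include probe sets too dim to be tested. Of the 4 MSH6 probe sets 2 were tested, and these had 0.41 and 0.53 in Ex4. Leaving out 1 array gave ranges in LQ of -0.28 to 0.39 for CLSPN, -0.0014 to 0.163 for UIMC1, -0.085 to 0.241 for FANCL and -0.092 to 0.092 for PARP2, and in Ex4 of -0.051 to 0.235 for BLM, -0.0017 to 0.266 for UIMC1 and -0.158 to 0.095 for PARP2.

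The replicate number as a block called 7 members higher and 1 lower in LQ (8 in all), 0 in Ex4 and 8 higher and 1 lower in both mutants (9 in all), beside 2215, 4 and 4004 of all probe sets. Of 9 same-numbered pairs 4 had correlated deviations over 0.1 (-0.083 to 0.191), and differently numbered pairs ran from -0.229 to 0.164. The best match shared the number in 9 of 18 cases. These values do not settle whether the numbers mark pairs, and the labels do not say so. The main fit left the numbers out. Depth has no counterpart on arrays, and dim probe sets, such as those of NEIL2 on 4 arrays below the array median, limit the sizes given.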
